A study of Mus musculus with 10 samples.

Results

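Carbonic anhydrases are the zinc enzymes that turn carbon dioxide and water into bicarbonate and a proton. The 10 family genes Car2, Car3, Car4, Car5a, Car5b, Car7, Car8, Car12, Car14 and Car15 were taken by name from the deposited comparisons of mouse kidneys, as 10 of 30431 rows and 10 of the 16 rows of the family. Total RNA of the whole kidney had been sequenced in 10 mice, all aged 21 days after birth. The DM group held 3 mice of the genotype Pkhd1Cre; Pkd2 F/F; miR-21null, in which Pkd2, the gene of polycystin-2, is deleted and miR-21 is missing. The SM group held 3 mice of the genotype Pkhd1Cre; Pkd2 F/F, with the Pkd2 deletion alone. The WT group held 4 mice labelled wild-type, and the labels do not say whether these carried the Cre or the floxed alleles. Pkhd1Cre is a Cre driver known for activity in the collecting duct; the labels give neither sex nor strain. Loss of Pkd2 in tubules gives polycystic kidneys, and the comparisons ask how the RNA of the cystic kidney differs from wild type with and without miR-21.

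In the kidney these enzymes work in series with bicarbonate and proton transporters. In the proximal tubule, a membrane-bound enzyme in the lumen and a cytosolic enzyme in the cell together let filtered bicarbonate be reclaimed. In the intercalated cells of the collecting duct, the cytosolic enzyme supplies protons to the proton pump and bicarbonate to an anion exchanger. Among the 10 genes, Car2, Car3, Car7 and Car8 encode cytosolic proteins, Car5a and Car5b mitochondrial enzymes, Car4 and Car15 enzymes held at the outer face of the plasma membrane by a lipid anchor, and Car12 and Car14 enzymes that span the membrane with the catalytic part outside the cell.

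The miRNA deleted in DM mice and the places in the members that its seed could pair with are shown first, since DM differs from SM in that miRNA. The seed, bases 2 to 8, is in capitals (RefSeq, GRCm38.p6, chr11:86584120-86584141, minus strand).

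mmu-miR-21a-5p: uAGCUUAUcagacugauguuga

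The words ATAAGCT, which pairs with bases 2 to 8, and TAAGCTA, which pairs with bases 2 to 7 followed by an A, were in the 3′ UTR of 0 of the 10 members (GENCODE, the longest annotated 3′ UTR of each gene, transcript strand only). They were present in 7.19% and 6.66% of 21004 protein-coding genes. The shorter word TAAGCT, contained in both, pairs with bases 2 to 7 and was found in 2 members, Car8 and Car12, against 23.4% of all genes. Among genes whose 3′ UTR is 0.8 to 1/0.8 times as long, it was found in 47.0% for the length of Car8 and in 42.4% for that of Car12. Both matches are printed with the word in capitals (GRCm38, Car8 at chr4:8145378-8145401 on the minus strand, Car12 at chr9:66765436-66765459 on the plus strand).

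Car8: tacccttcttttcagtTAAGCTca

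Car12: gctatctgtgtagaacTAAGCTtg

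Promoter windows of 250 bases before and 50 after the annotated start were at hand for 7 of the 10 members (RefSeq, GRCm38.p6). Shown are 3 of the 4 membrane-bound genes, the class of which every member was called lower in both cystic groups: Car4 (chr11:84957504-84957803, plus strand), Car14 (chr3:95904636-95904935, minus strand) and Car12 (chr9:66713436-66713735, plus strand). The words TATAAA (the TATA box), CCAAT (the CAAT box), GGGCGG (the GC box), ACGTG (the core of the hypoxia response element) and GTTAAT (one arm of the HNF1 site) were searched on both strands, and matches are in capitals.

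Car4: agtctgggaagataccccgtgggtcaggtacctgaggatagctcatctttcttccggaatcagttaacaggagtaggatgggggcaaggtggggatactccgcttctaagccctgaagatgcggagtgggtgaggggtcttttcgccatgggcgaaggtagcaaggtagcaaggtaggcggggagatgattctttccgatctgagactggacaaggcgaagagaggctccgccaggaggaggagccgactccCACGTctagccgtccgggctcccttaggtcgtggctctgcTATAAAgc

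Car14: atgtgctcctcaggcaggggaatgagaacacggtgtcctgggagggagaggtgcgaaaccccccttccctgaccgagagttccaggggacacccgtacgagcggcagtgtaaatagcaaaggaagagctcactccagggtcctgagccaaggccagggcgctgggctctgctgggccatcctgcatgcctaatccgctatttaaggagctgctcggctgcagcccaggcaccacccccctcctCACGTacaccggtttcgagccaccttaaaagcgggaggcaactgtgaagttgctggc

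Car12: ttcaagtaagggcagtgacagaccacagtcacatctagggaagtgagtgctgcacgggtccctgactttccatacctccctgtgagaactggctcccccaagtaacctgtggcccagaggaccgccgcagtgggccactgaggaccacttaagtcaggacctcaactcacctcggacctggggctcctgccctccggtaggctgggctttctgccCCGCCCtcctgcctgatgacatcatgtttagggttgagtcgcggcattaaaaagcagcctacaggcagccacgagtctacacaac

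ACGTG lay on the minus strand at position 3 from the start of Car4 and at position -7 from that of Car14, and 19.6% of 32851 windows held it. GGGCGG lay at position -35 of Car12, on the minus strand, and was in 35.7% of windows. Car4 also had TATAAA, at position 43, a word in 13.6% of windows. CCAAT (37.4% of windows) was in the windows of Car5a, Car5b and Car15 and in none of the 3 shown, and GTTAAT (7.1% of windows) was in 0 of the members' windows. No word was in the windows of all 5 genes that fell in both cystic groups, which tells little where each word is in at most 37.4% of windows. In the window of Car15, unlike the other members' windows, no GENCODE transcript start was found near the end.

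The values analysed here are the authors' comparisons, with none per library, so each group has a fitted level and no spread. Levels are given in CPM, the unit of counts scaled to the size of each library. They were worked out from the average and the fold changes that the authors gave, and not from counts. Their totals over all rows differ between the groups, at 937000 in DM, 946000 in SM and 1100000 in WT. A level or summed level in WT is thus part of a larger total than one in DM or SM. The error of a fold change is the SE implied by the authors' likelihood ratio test in edgeR, and intervals are 95% intervals from that SE. A row is called when the authors' adjusted p is below 0.05. Sequencing depth is unknown. Pkd2, the targeted gene, was not called: the authors' deposited tables put its log2 fold change at -0.49 (implied SE 0.20, edgeR adjusted p = 0.0838) in DM against WT and at -0.41 (implied SE 0.20, edgeR adjusted p = 0.179) in SM against WT. The row of the miR-21 gene is at the lowest level of the tables and checks nothing. The 15 proximal tubule markers averaged 54.7 to 3170 CPM, so the main cell type of the labelled tissue was well represented.

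Per kilobase of the longest coding transcript, Car2 was the most abundant member in every group, at 255 CPM per kb in DM, 292 in SM and 367 in WT. Car2 is the main cytosolic enzyme of tubule cells. In WT it was followed by Car15 at 161, Car12 at 116, Car14 at 77.2, Car4 at 66.2, Car3 at 42.7 and Car5b at 24.6 CPM per kb. Car5a at 4.56, Car8 at 3.41 and Car7 at 3.01 CPM per kb were the lowest in WT. In DM the order began with Car2, Car15 (85.0) and Car12 (60.6), and in SM with Car2, Car12 (59.9) and Car15 (59.4). Without libraries it cannot be said which neighbours in these orders differ beyond their spread.

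**Figure D1:**
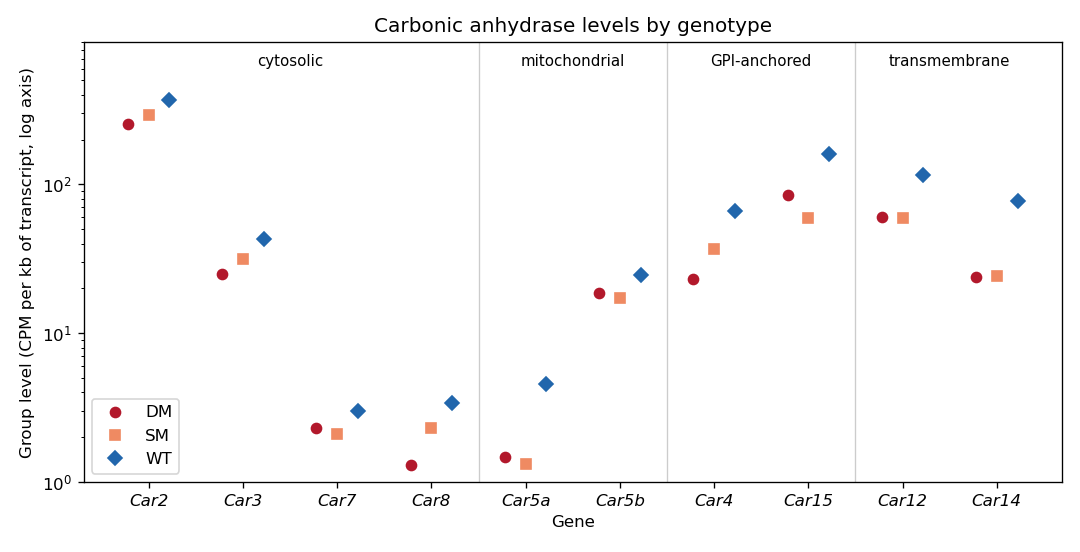
Fitted group levels of the 10 members in CPM per kb of transcript, on a log axis, for DM (circles), SM (squares) and WT (diamonds), grouped by where the protein sits. No error is drawn because the tables hold no spread of a level. WT stands highest for every gene, and Car2 is the highest gene in each group, at 255 in DM, 292 in SM and 367 in WT.

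In SM kidneys, with the Pkd2 deletion alone, 5 of the 10 members were called and all 5 were lower, against 14.0% of all rows called, 6.09% of all rows called lower and 9.47% of the 15135 rows of at least 1 CPM called lower. All 10 members exceed 1 CPM. The 5 were the 4 membrane-bound enzymes and Car5a. The median log2 fold change over the members was -0.69, against 0.00 over all rows, in the authors' deposited table for SM against WT. Summed over the 4 membrane-bound genes, the level was 387 CPM in SM and 852 CPM in WT. Summed over the 4 cytosolic genes it was 589 CPM in SM and 748 CPM in WT.

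Car14, known in the mouse kidney from the proximal tubule, had 41.7 CPM in SM against 132 CPM in WT. The authors' deposited table gives -1.66 ± 0.31 (log2 fold change and implied SE; edgeR adjusted p = 2.96e-06), or 31.6% of the WT level. Car15, a lipid-anchored enzyme expressed in mouse kidney, had 76.2 CPM in SM against 206 CPM in WT, a log2 difference of -1.44 with an implied SE of 0.24 and an edgeR adjusted p = 1.41e-07 from the authors' deposited table. These were the largest decreases among the membrane-bound members in SM. Car12, which sits in the basolateral membrane of tubule cells, had 223 CPM in SM and 431 CPM in WT, which the authors' deposited table gives as -0.95 ± 0.24 (log2 fold change and implied SE; edgeR adjusted p = 0.00109). Car4, the lipid-anchored enzyme of the brush border, had 46.6 CPM in SM and 83.1 CPM in WT, -0.83 ± 0.21 as a log2 fold change with its implied SE, and an edgeR adjusted p = 0.00138, per the authors' deposited table. In each of the 4 genes the 95% interval lay below 0, the bound nearest to 0 being the -0.42 of Car4.

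Of the mitochondrial pair, Car5a fell and Car5b was not called. Car5a had 1.66 CPM in SM against 5.70 CPM in WT, a log2 difference of -1.78 with an implied SE of 0.35 and an edgeR adjusted p = 1.48e-05 from the authors' deposited table, or 29.0% of WT. Car5b, which provides bicarbonate in mitochondria of many tissues, had 59.0 CPM in SM and 84.5 CPM in WT. Its log2 fold change was -0.52 with an interval from -0.93 to -0.10 (adjusted p = 0.0866 in the authors' deposited table from edgeR). Car5b stood well above Car5a in each group, at 17.2 against 1.33 CPM per kb in SM and 24.6 against 4.56 CPM per kb in WT.

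None of the 4 cytosolic members was called in SM against WT, and all 4 values were below 0. Car2 had 523 CPM in SM and 657 CPM in WT, a log2 fold change of -0.33 with an interval from -0.80 to 0.15 (adjusted p = 0.48 in the authors' deposited table from edgeR). Car8, whose protein has lost enzyme activity and binds an inositol trisphosphate receptor, had 8.94 CPM in SM and 13.1 CPM in WT, a log2 fold change of -0.56 (interval -1.15 to 0.04) by the authors' deposited table. Car7 had 4.09 CPM in SM and 5.84 CPM in WT, with -0.51 (implied SE 0.33) as its deposited log2 fold change. Car3, an enzyme of low activity abundant in muscle and fat, had 53.1 CPM in SM and 71.8 CPM in WT. Its implied SE of 0.82 was the largest of the members, and the interval of its log2 fold change ran from -2.05 to 1.17.

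With the same likelihood ratios read against an F distribution with 1 and 7 degrees of freedom, a more cautious test, 2 members were called in SM against WT, Car14 and Car15, while Car5a (adjusted p = 0.0546), Car4 (0.0961) and Car12 (0.0925) were not. That test called 2.24% of all rows.

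In DM kidneys, with miR-21 missing as well, 6 of the 10 members were called and all 6 were lower, against 13.5% of all rows called, 5.92% of all rows called lower and 8.53% of the rows of at least 1 CPM called lower. They were the 4 membrane-bound enzymes, Car5a and Car8. The median over the members was -0.93, against 0.00 over all rows, in the authors' deposited table for DM against WT. This comparison shares its WT mice with the preceding one. The summed level of the membrane-bound genes was 404 CPM in DM and 852 CPM in WT, and that of the cytosolic genes 507 CPM in DM and 748 CPM in WT.

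Among the membrane-bound members Car4 had the lowest p. It had 29.1 CPM in DM against 83.1 CPM in WT, which the authors' deposited table gives as -1.52 ± 0.22 (log2 fold change and implied SE; edgeR adjusted p = 4.16e-10), or 35.0% of WT. Car14 had 40.9 CPM in DM and 132 CPM in WT, -1.69 ± 0.31 as a log2 fold change with its implied SE, and an edgeR adjusted p = 2.33e-06, per the authors' deposited table. Car12 had 225 CPM in DM and 431 CPM in WT, a log2 difference of -0.94 with an implied SE of 0.24 and an edgeR adjusted p = 0.00146 from the authors' deposited table. Car15 had 109 CPM in DM and 206 CPM in WT, which the authors' deposited table gives as -0.92 ± 0.24 (log2 fold change and implied SE; edgeR adjusted p = 0.00169).

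Car5a had 1.85 CPM in DM and 5.70 CPM in WT, -1.63 ± 0.34 as a log2 fold change with its implied SE, and an edgeR adjusted p = 7.4e-05, per the authors' deposited table. Car5b had 64.3 CPM in DM and 84.5 CPM in WT and was not called, at -0.39 with an interval from -0.81 to 0.02. Car8 fell to 5.03 CPM in DM, against 13.1 CPM in WT, a log2 difference of -1.38 with an implied SE of 0.31 and an edgeR adjusted p = 2.28e-04 from the authors' deposited table. It was the sole cytosolic member called in any comparison. Car2 had 455 CPM in DM and 657 CPM in WT, a log2 fold change of -0.53 with an interval from -1.01 to -0.05, whose unadjusted p of 0.0296 did not hold after adjustment (adjusted p = 0.149 in the authors' deposited table from edgeR). The authors' deposited log2 fold changes of Car7 and Car3, also not called, were -0.38 (implied SE 0.33) and -0.76 (implied SE 0.83). With the F distribution 1 member was called in DM against WT, Car4, and the adjusted p of the other 5 ran from 0.0534 for Car14 to 0.107 for Car15. That test called 1.48% of all rows.

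**Figure D2:**
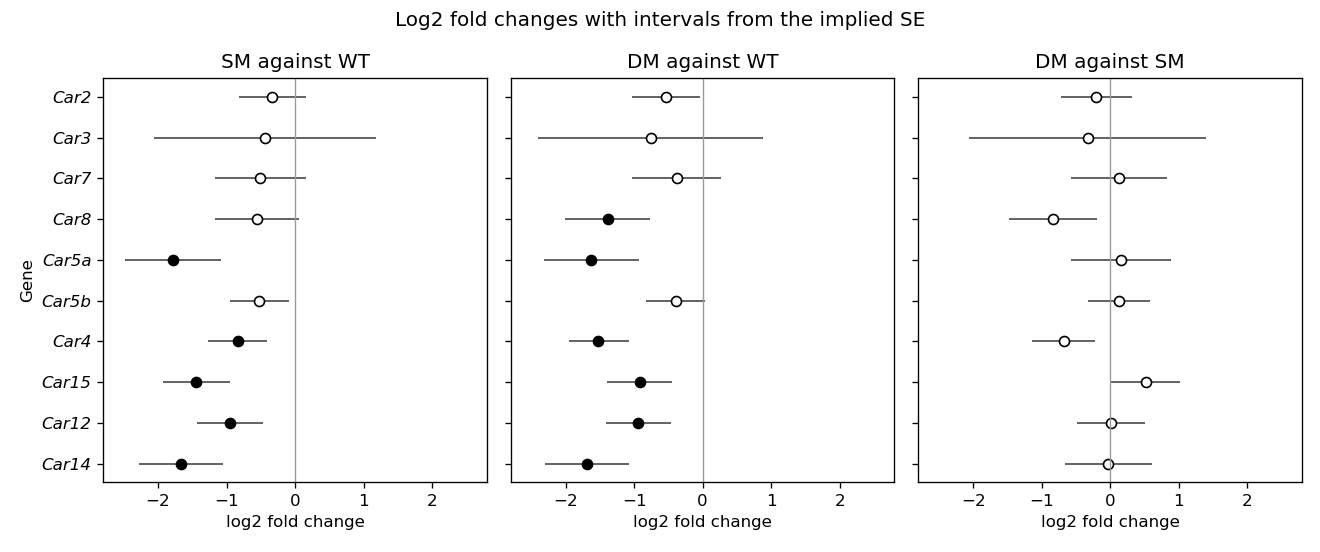
Log2 fold changes of the 10 members (rows) in the 3 comparisons (panels), with 95% intervals from the implied SE. Filled points have an adjusted p below 0.05 in the authors' deposited tables. All 10 points lie below 0 in SM against WT and in DM against WT, and none is filled in DM against SM.

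In DM kidneys set against SM kidneys, 0 of 10 members were called by edgeR, where 0.0789% of all rows were called. At an unadjusted p below 0.05 there were 3 of 10, against 3.75% of all rows, and the F distribution called 0 members and 0 rows. The signs of the 3 were mixed. Car4 had 29.1 CPM in DM against 46.6 CPM in SM, a log2 fold change of -0.68 with an interval from -1.12 to -0.24 (unadjusted p = 0.00226, adjusted p = 0.528 in the authors' deposited table from edgeR). Car8 had 5.03 CPM in DM and 8.94 CPM in SM, a log2 fold change of -0.83 with an interval from -1.46 to -0.20 (unadjusted p = 0.0103, adjusted p = 0.959 in the authors' deposited table from edgeR). Car15 had 109 CPM in DM and 76.2 CPM in SM, a log2 fold change of 0.52 with an interval whose lower bound was 0.03 (unadjusted p = 0.0359, adjusted p = 1 in the authors' deposited table from edgeR). Car8, called in DM against WT and not in SM against WT, is thus not shown to differ between DM and SM.

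Of the remaining members, Car12 had 225 CPM in DM and 223 CPM in SM, and Car14 40.9 CPM in DM and 41.7 CPM in SM. Their log2 fold changes of 0.01 and -0.03 had intervals from -0.47 to 0.50 and from -0.64 to 0.59 in the authors' deposited table for DM against SM. Those intervals hold differences in either direction. Car2 stood at -0.20 (interval -0.70 to 0.30), Car5a at 0.16 (-0.56 to 0.87), Car5b at 0.13 (-0.31 to 0.57), Car7 at 0.13 (-0.55 to 0.82) and Car3 at -0.33 (-2.04 to 1.38) in the same deposited table. Car8 and Car12 are the 2 members with the TAAGCT word printed above. The interval of Car8 lay below 0 (-1.46 to -0.20), though it was not called, and that of Car12 held differences in either direction. An effect of miR-21 on these 2 genes was not tested. Car4 lies on chromosome 11 (chr11:84957786-84966044), as does the miR-21 gene (chr11:86584120-86584141), whose loss separates DM from SM. The part of DNA linked to the deleted miR-21 gene in the value of Car4 was not tested.

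The tables held another 6 rows of the family, and 0 of them were called in any comparison by edgeR, with 1 at an unadjusted p below 0.05, Car11 in DM against WT. Car9, the hypoxia-induced transmembrane enzyme, had 6.11 CPM in DM, 5.48 CPM in SM and 6.58 CPM in WT, and the authors' deposited log2 fold changes were -0.11 (implied SE 0.34) in DM against WT and -0.26 (implied SE 0.34) in SM against WT. Car13, a cytosolic enzyme, had 4.61 CPM in DM, 5.23 CPM in SM and 3.99 CPM in WT. Car11, which like Car8 lacks enzyme activity, had 4.78 CPM in DM, 3.95 CPM in SM and 3.09 CPM in WT, and its log2 fold change of 0.63 in DM against WT had an adjusted p = 0.154 by edgeR in the authors' deposited table. Car1, Car6 and Car10 lay close to the lowest level of the tables, at averages of -3.75, -3.74 and -3.79 log2 CPM, and no fold change is given. Car13, Car1, Car3 and Car2 lie side by side within 259 kb (GRCm38, chr3:14641727-14900770). Of these 4 neighbours 0 were called by edgeR, against 14.0% of all rows in SM against WT and 13.5% in DM against WT. Car1 is near the lowest level and Car3 has a wide error, so the count says little about the locus. Car14, elsewhere on chromosome 3 (chr3:95897768-95904691), was called lower in both cystic groups.

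Transporters that carry the products of these enzymes formed a list of 25, of which 8 were lower and 3 higher in SM against WT and 7 lower and 1 higher in DM against WT, with 0 called in DM against SM by edgeR (1 at an unadjusted p below 0.05), in the authors' deposited tables. With the F distribution, 1 was lower and 1 higher in each of the comparisons with WT. The median log2 fold change over those of at least 1 CPM was -0.33 in DM against WT and -0.44 in SM against WT. Slc4a1, the anion exchanger of acid-secreting intercalated cells and red cells, fell to 24.7 CPM in DM and 21.9 CPM in SM, against 94.0 CPM in WT. Slc26a7, an anion exchanger of the same cells, fell to 1.28 CPM in DM and 1.34 CPM in SM, against 4.00 CPM in WT. Slc9a3, the sodium-proton exchanger of the brush border, fell to 124 CPM in DM and 117 CPM in SM, with edgeR adjusted p = 5.84e-05 in DM against WT and 8.57e-06 in SM against WT from the authors' deposited tables. Rhbg, an ammonia channel, had 32.6 CPM in DM, 24.0 CPM in SM and 56.6 CPM in WT. Slc9a4, another sodium-proton exchanger, rose in both, with 16.3 CPM in DM, 22.1 CPM in SM and 4.22 CPM in WT. Slc4a4, the basolateral sodium-bicarbonate cotransporter of the proximal tubule, is added here with its values known. The authors' deposited tables call it in DM against WT (-0.93 with an implied SE of 0.31, edgeR adjusted p = 0.023) and not in SM against WT (-0.71 with an implied SE of 0.31, edgeR adjusted p = 0.111). Its value in DM against SM was -0.22 (adjusted p = 1 by edgeR).

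Of 8 enzymes that use bicarbonate as a substrate, 7 were lower in each comparison with WT, with medians of -0.94 in DM and -0.99 in SM in the authors' deposited tables. The F distribution left 0 of the 7 called in DM against WT and 1 in SM against WT. Pcx, pyruvate carboxylase, had 336 CPM in DM, 322 CPM in SM and 663 CPM in WT. Acaca, the cytosolic acetyl-CoA carboxylase, was the enzyme not called, at -0.34 in DM and -0.18 in SM against WT. Among the 15135 rows of at least 1 CPM, 1711 were called higher in DM against WT and 1840 in SM against WT. Of 16 hypoxia response genes, 1 was higher and 0 lower in DM against WT and 1 was higher and 1 lower in SM against WT. Egln3 was the higher gene in both, at 1.27 in DM and 1.97 in SM against WT, and Vegfa the lower, at -0.73 in SM against WT (the authors' deposited tables). With the F distribution 0 of these were called in DM against WT, and 1, the higher one, in SM against WT.

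Markers of several cell types also differed between the groups, some lower and some higher. For the higher ones, the background was 1711 of 15135 rows of at least 1 CPM in DM against WT and 1840 in SM against WT. Proximal tubule markers were lower for 12 of 15 in DM against WT and 13 of 15 in SM against WT, with medians of -1.19 and -1.39, and their summed level was 9390 CPM in DM, 8240 CPM in SM and 21100 CPM in WT. Of 13 intercalated cell markers, 5 were lower in DM against WT and 7 in SM against WT (887 CPM in DM, 800.0 CPM in SM and 1320 CPM in WT, summed). Of 10 principal cell markers, 4 were higher in DM against WT and 7 in SM against WT (1570 CPM in DM, 1840 CPM in SM and 1190 CPM in WT, summed). Of 8 macrophage markers, 7 were higher in DM against WT and 8 in SM against WT, and they summed to 393 CPM in DM, 392 CPM in SM and 118 CPM in WT. The F distribution left fewer of these calls: proximal tubule markers lower were 2 in DM against WT and 4 in SM against WT, intercalated cell markers lower 1 and 3, principal cell markers higher 1 and 2, and macrophage markers higher 6 and 7, in the same order. In whole kidney, fewer cells of a type and less RNA per cell cannot be told apart, and the part of cell composition in the members' values was not tested. The decreases of Car14 (-1.69 in DM and -1.66 in SM) lay below the median of the proximal tubule list. Its intervals (-2.29 to -1.09 in DM and -2.27 to -1.06 in SM) held that median. Of the other membrane-bound members, Car12 lay above the median in both, Car4 below it in DM only and Car15 below it in SM only. The intervals of Car12 and Car15 held the median in both comparisons, as did that of Car4 in DM (-1.94 to -1.09). The interval of Car4 in SM (-1.25 to -0.42) did not. The list's lowest gene, Gatm, had 427 CPM in DM, 485 CPM in SM and 1710 CPM in WT.

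**Figure D3:**
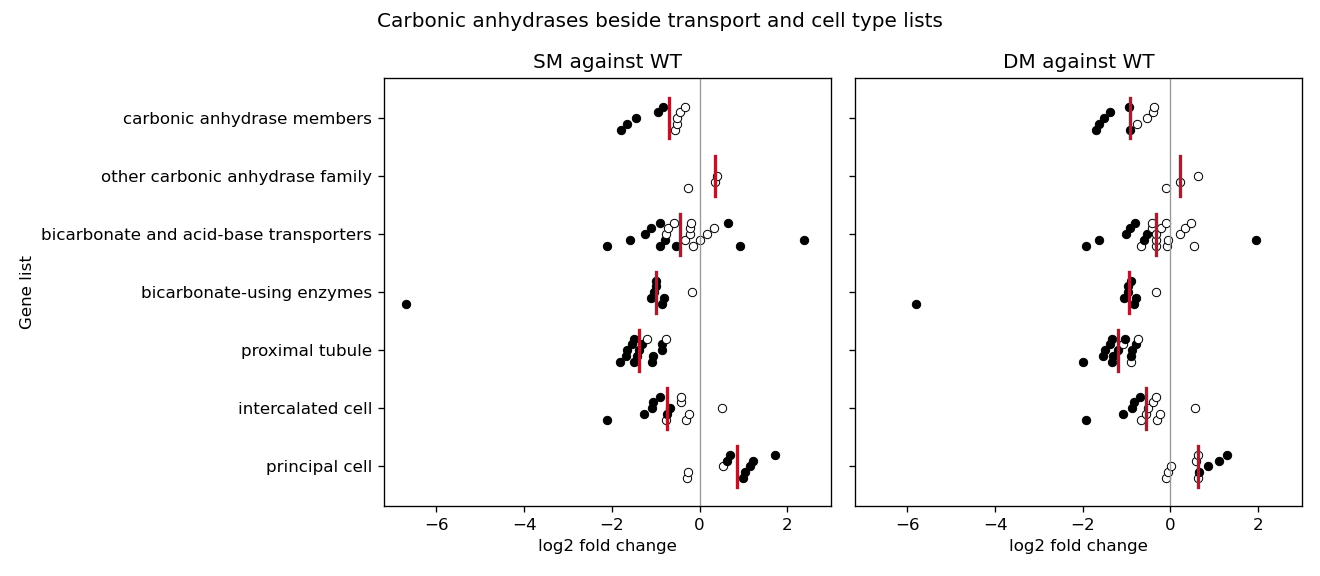
Log2 fold changes of the carbonic anhydrase members and of 6 gene lists (rows) in SM against WT and DM against WT (panels), for genes of at least 1 CPM. Points are genes, filled where the adjusted p was below 0.05 in the authors' deposited tables, and red bars are medians. The members' medians of -0.93 in DM and -0.69 in SM lie between 0 and those of the proximal tubule markers, -1.19 in DM and -1.39 in SM.

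Car5a is best known as a liver enzyme, and the hepatocyte markers also differed between the groups. Of 22 markers, 14 were lower and 3 higher in DM against WT and 15 were lower and 2 higher in SM against WT by the authors' deposited tables. With the F distribution 0 were lower and 1 higher in DM against WT, and 1 was lower and 2 were higher in SM against WT. Their summed level was 289 CPM in DM, 259 CPM in SM and 381 CPM in WT, most of it in DM and SM from the fibrinogen genes, Ttr and Serpina1a. The defining marker Alb had 1.03 CPM in DM and 0.328 CPM in SM, against 132 CPM in WT. Cps1, the mitochondrial liver enzyme that uses bicarbonate for urea synthesis, had 0.0937 CPM in DM and 0.0504 CPM in SM, against 5.22 CPM in WT, a level close to the 5.70 CPM of Car5a there. The implied SE in SM against WT was 1.49 for Alb and 1.42 for Cps1, and 0.35 for Car5a. These data hold no liver sample, so the ratio of Cps1 to Car5a in liver is not known from them. The likeness of the levels of Cps1 and Car5a in WT thus gives no share of liver RNA. The part of liver RNA in the value of Car5a was not tested.

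Car3 had a wide error, as had markers of fat, a tissue where it is abundant. The median implied SE of 8 adipocyte markers was 0.80 in DM against WT and 0.83 in SM against WT, beside 0.83 and 0.82 for Car3 and 0.25 for the median row of at least 1 CPM. The summed level of these markers was 346 CPM in DM, 341 CPM in SM and 534 CPM in WT. Most of each sum came from Fabp4, whose implied SE was below the list's median in both comparisons with WT. In DM against WT 0 were called, with 2 at an unadjusted p below 0.05, Lep higher and Fabp4 lower. In SM against WT 1 was called, and it was lower. Adipoq, the defining fat marker, had 11.7 CPM in DM, 11.2 CPM in SM and 17.8 CPM in WT. Skeletal muscle markers summed to between 14.4 and 17.9 CPM in the 3 groups, with 1 of 11 higher and 0 lower in each comparison with WT. Most of each sum came from Eno3, and 2 of the 11 rows averaged at least 1 CPM. The called marker, Tnni2, averaged less than 1 CPM, so these counts say little about muscle. The F distribution called 0 fat or muscle markers in either comparison with WT. The part of fat in the value of Car3 was not tested.

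Car2 is abundant in red cells, whose 8 markers with a row had 0 called in any comparison by edgeR, with 3 at an unadjusted p below 0.05 in DM against WT, 0 in SM against WT and 1 in DM against SM. They summed to 280.0 CPM in DM, 427 CPM in SM and 583 CPM in WT, nearly all from the beta-globin row Beta-s, and 4 globin rows were at the lowest level of the tables. Car4 is also found on capillaries. Of 8 endothelial markers 3 were lower in DM against WT and 0 in SM against WT (2 at an unadjusted p below 0.05), and in DM against SM all 8 lay below 0 with 0 called and a median of -0.37, beside -0.68 for Car4. The F distribution left 0 of the 3 endothelial calls. The part of blood and capillaries in these values was not tested.

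On the genome (GRCm38), Car4 lies at chr11:84957786-84966044, Car15 at chr16:17835276-17838364, Car12 at chr9:66713686-66766845, Car5a at chr8:121916126-121944904 and Car8 at chr4:8143362-8239041. Car14 overlaps 521 bases of Aph1a, a gamma-secretase subunit gene on the opposite strand. Aph1a was not called, with deposited log2 fold changes of -0.27 (implied SE 0.23) in DM against WT and -0.36 (implied SE 0.23) in SM against WT. Car15 lies within the model Gm20518 on its own strand and Car5a within Gm20388 on the opposite strand, and neither model has a row. Car5a also overlaps the noncoding gene BC048644 on the opposite strand, whose row averages -4.14 log2 CPM. Whether counting used the strand is not stated by any label or header, so reads shared with overlapping genes cannot be told apart.

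The genes whose pair of fold changes against WT lay closest to each called member, over the 3 groups and among rows of at least 1 CPM, were found by Euclidean distance on the log2 scale. For Car4 they were Slc7a8 (distance 0.09), Igfbp5 (0.12) and Tarm1 (0.148), and 1 row lay within 0.1 of it. For Car8 they were Cyp2e1 (0.052), Tchhl1 (0.075) and Phyhip (0.081). For Car15 they were Thrsp (0.024), Gcgr (0.053) and Cisd1 (0.06). For Car14 they were Lin7a (0.031), BC024386 (0.037) and the phosphate transporter gene Slc34a3 (0.059), and for Car5a Atp4a (0.067), Wfdc15b (0.087) and Lin7a (0.105). Car12 had the most common pattern, with 85 rows within 0.1, the closest being Selenbp1 (0.012), Bckdha (0.013) and Msra (0.016).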

How the data were processed

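RNA came from flash-frozen kidneys (miRNeasy extraction) and the library kit was a TruSeq Stranded Total RNA kit, per the labels. Reads were handled with edgeR 3.2.4, Subread 1.4.6, featureCounts, Cufflinks, TopHat2 2.0.12 and bcl2fastq 1.8.4 on build mm10, per the submitters' processing notes, which give no roles. The authors deposited 3 tables of 30431 rows, 1 for each comparison. The log2 values are fold changes and average CPM, per the file headers, which also name a likelihood ratio score, a p-value and an adjusted p-value. It was checked for all deposited rows that the p-value follows from the score by a chi-square distribution, that the adjustment is Benjamini and Hochberg's over the table, and that the 3 tables hold equal averages. The mice are separate animals, 3 DM, 3 SM and 4 WT.

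The threshold was an adjusted p of 0.05 over all rows. The implied SE is the absolute log2 fold change over the root of the score, and intervals are 1.96 SE wide on each side. Group levels were set so that their mean over the 10 libraries equals the deposited average. SE and levels were tested on simulated data. Lists (4 of pathways, 9 of cell types) are described by counts and medians, and 2 of their genes had no row while 2 were matched by a RefSeq synonym. Named genes were all members, the other family rows, up to 4 called genes per list and comparison, by size of change, or needed as defining markers, and the 3 nearest patterns. Slc4a4, Fabp4, Lep, Eno3 and the genes that carry most of the hepatocyte sum were added after their values were seen. Members and lists were chosen with earlier results of these data known. Alternatives were thresholds of 0.01 and 0.10, a filter at 1 CPM, an F distribution with 1 and 7 degrees of freedom, and recentring. Positions, transcript lengths and 3′ UTRs came from GENCODE release M21 on GRCm38, the assembly that mm10 names. Python 3.11.15, SciPy 1.17.1 and pandas 2.3.3 were used.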

Additional observations from a re-analysis of the deposited data

How the results depend on the processing

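Recentring, the sole alternative that can move a fold change, left the direction of all 10 members as it was in all 3 comparisons. Its shifts were smaller than every member's fold change in the same comparison, so no direction could have changed. Thresholds of 0.01 and 0.10, the filter at 1 CPM and recentring on the median of rows of at least 1 CPM (shifts of -0.01 in SM against WT, 0.002 in DM against WT and 0.001 in DM against SM) left every member's call as it was, except that Car5b was called in SM against WT at 0.10 (adjusted p = 0.0866). The F distribution ended 8 calls. It left 2 members called in SM against WT (Car14 and Car15) and 1 in DM against WT (Car4). Over all rows it called 682 in SM against WT, 451 in DM against WT and 0 in DM against SM, against 4248, 4100 and 24 by the chi-square tail. It treats the spread as known from 7 residual degrees of freedom only, so by construction it calls fewer rows. Rows called at a threshold of 0.01 were 2775, 2596 and 7 in the same order. The filter at 1 CPM left 13 rows called in DM against SM. Of 78 counts over the lists, 20 moved by more than 1.5 times under the F distribution, among them bicarbonate-using enzymes lower (0 in DM against WT and 1 in SM against WT, in place of 7 each) and hepatocyte markers lower (0 and 1, in place of 14 and 15). The F distribution can only end calls, so a count of 0 at the main setting could not move under it. All list counts in DM against SM and many against WT were 0 there, so 20 of 78 understates how far the list counts moved. No paired analysis was possible because the tables hold comparisons and not libraries, and the mouse numbers differ between groups. For the same reason leaving out a mouse, a count test and another normalization could not be run, and depth is unknown.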
